A study of Mus musculus with 25 samples.

Results

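Myoblasts lacking MyoD and myoblasts lacking p53 were set jointly against wild type, to describe the state that the 2 genotypes have in common. The comparison used 6 knockout samples, 3 of MyoD-/- and 3 of p53-/-, and 3 wild-type samples, which are all 9 samples of the series. Each sample was hybridised to 1 Affymetrix U74Av2 and 1 U74Cv2 array, giving 18 of the series' 25 arrays. The 7 arrays of U74Bv2 were not used here because p53-/- had a single array of that type. The mean of the MyoD-/- arrays and the mean of the p53-/- arrays received equal weight. Every probe set other than the Affymetrix controls entered, 24290 in all, of which 15767 passed the filter on low signal.

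The groups were MyoD-/- myoblasts, p53-/- myoblasts and wild-type myoblasts, each the cultured progeny of mouse satellite cells, the stem cells of adult skeletal muscle. All were growing when RNA was taken, on collagen in Ham's medium, to which 20% fetal calf serum and, at 4 ng/ml, basic fibroblast growth factor had been added, so none had been switched to differentiation medium. Purity was put above 98% by the labels, from Desmin, Myf5 and MyoD in wild type but from Myf5 and c-met in both knockouts. The TriZol extraction is labelled differently for p53-/- (Trizol x2). How the letters A, B and C relate to mice or cultures, the age of the mice and the strain are not stated in the labels. P-values therefore measure the spread between these samples only. In bulk RNA, fewer cells of a kind and less RNA per cell cannot be told apart.

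MyoD is a basic helix-loop-helix transcription factor that binds E-boxes in muscle genes and, with Myf5, myogenin and Myf6, commits cells to the muscle lineage and drives their differentiation. p53 is a transcription factor activated by DNA damage and other stress that halts the cell cycle or starts cell death, and it is also known to act in differentiating myoblasts. Myoblasts that lack either factor are known to differentiate poorly. When a myoblast differentiates it leaves the cell cycle, turns on myogenin, fuses with its neighbours and makes the proteins of the contractile apparatus.

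All signals are MAS5 intensities as the authors deposited them. Median signal per array was 464 to 565 on U74Av2 and 454 to 545 on U74Cv2. All U74Av2 arrays shared a chip lot. On U74Cv2 the 3 wild-type arrays formed a lot of their own, so chip lot and genotype cannot be told apart there. All arrays but those of MyoD-/- A were scanned on a single day, with MyoD-/- B and the 3 wild-type samples in the morning and MyoD-/- C and the 3 p53-/- samples in the afternoon. MyoD-/- B and C, from different sessions, were the closest of the 9 pairs of arrays within a genotype. Their root mean square difference was 0.368 log2 units on U74Av2 and 0.615 on U74Cv2. The other pairs lay between 0.412 and 0.515 on U74Av2 and between 0.639 and 0.725 on U74Cv2. MyoD-/- A, scanned on another day, was among the farther pairs on U74Av2, at 0.512 from B and 0.508 from C. On U74Cv2 it was at 0.721 from B and 0.68 from C. Wild type and p53-/- shared no session, so session and genotype cannot be told apart from their arrays. A model with the session as a block leaves the morning and afternoon difference to be read from MyoD-/- B and C. It called 134 probe sets. The part of scan session in the results was not tested further. The named genes that lost their call under it are listed in the closing section.

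Between both knockouts together and wild type, 1462 probe sets were called (9.27% of those tested), 665 higher and 797 lower. A call is an adjusted p under 0.05 in limma with Benjamini-Hochberg adjustment over both chip types, on log2 of the signal plus an offset of 67.0 on U74Av2 and 106.6 on U74Cv2. That offset understates the changes of dim genes. The filter asked for a signal above the 40th percentile of its array on 3 of 9 arrays, and 20 of the 545 lower genes met it in wild type only and 47 of the 472 higher genes in the knockouts only. Such genes entered only through the side where they were high, so their calls are no support. Among the lower genes named below they are Smyd1, Myh3, Ryr1, Pgam2, Cox6a2 and Mstn. Among the higher they are Myf6, Grem1, Igfbp6, Ptpn22, En1, Bhlhe40, Tinagl1, Gulp1, Ndp, Gas2, Adam12, Rasgrf1, Tfpi2, Lox, Cd34 and Tnfrsf11b. Of the genes not called, 136 met the filter in the knockouts only and 3 in wild type only. Without wild type A 845 probe sets were called, and without wild type B 796. At the level of genes, each represented by its probe set of highest mean rank, 9013 were tested. Of these 472 were higher (5.24%) and 545 lower (6.05%) in the knockouts. Every count of a gene list below is to be read against these shares. The change reached 2-fold in 161 of the higher and 253 of the lower genes, and 4-fold in 28 of the higher and 72 of the lower. The 6 knockout arrays did not overlap the 3 wild-type arrays for 1111 genes (12.3%), and 715 of the called genes were among them. Knockout arrays lay wholly above wild type for 477 genes and wholly below it for 634.

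By number of calls, wild type did not stand further apart than either knockout. MyoD-/- against the other 2 genotypes gave 1835 called probe sets (11.6%) and p53-/- against the other 2 gave 1954 (12.4%). Of the variation between genotype means, the difference of both knockouts from wild type held 49.6% on U74Av2 and 48.9% on U74Cv2. An even split is what 3 equally distant genotypes would give. The same share was 59.6% and 54.4% for MyoD-/- against the other 2 genotypes, and 40.8% and 46.7% for p53-/-. By this measure MyoD-/- stood furthest apart and p53-/- least, with wild type between them. The direct comparison of MyoD-/- with p53-/- called 2045 probe sets (13.0%) and 1451 genes (16.1%). Its log2 differences do not use the wild-type arrays, but its filter and its estimate of spread do. Among the 1017 genes called between both knockouts and wild type, 378 also differed between the knockouts and 639 were not called different. In 29 called genes, 19 higher and 10 lower, the 2 knockout means lay on opposite sides of wild type, so the call rested on 1 genotype. MyoD-/- and p53-/- share their wild-type arrays, and their 2 shifts are therefore given side by side without a test of their likeness.

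**Figure D1:**
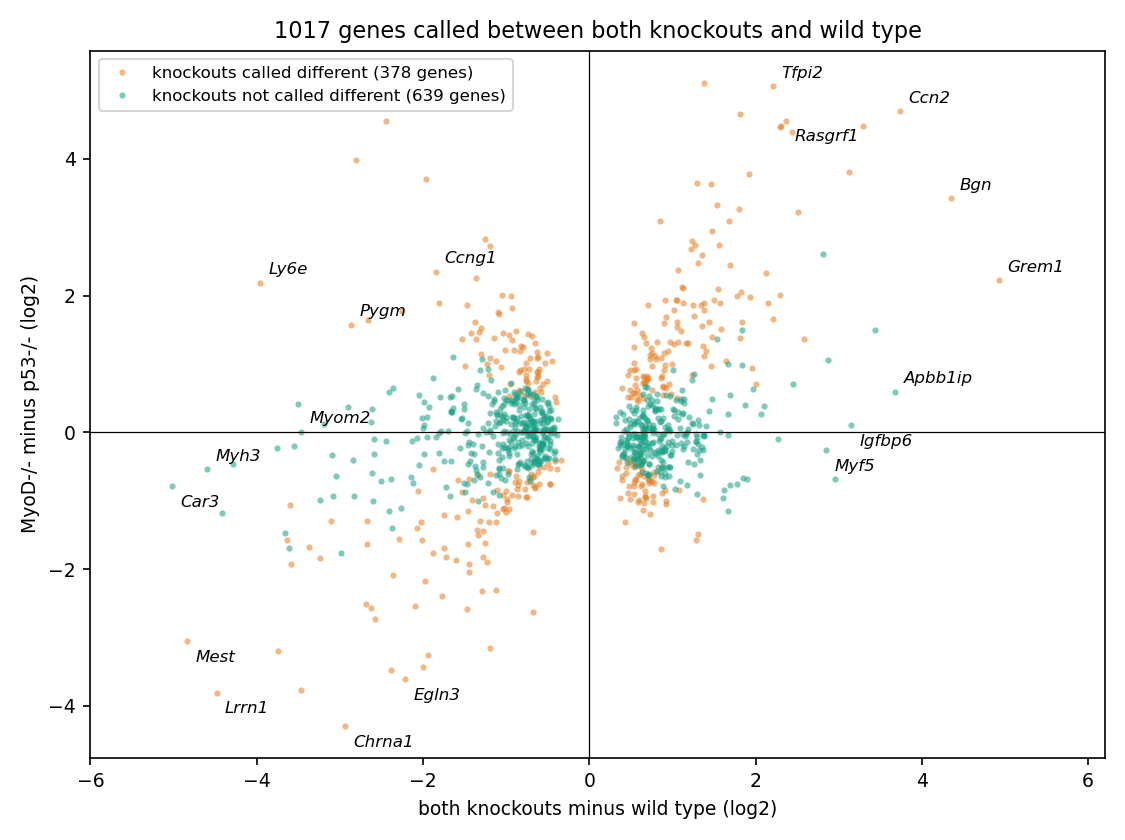
The 1017 genes called between both knockouts and wild type, 1 point per gene. The horizontal axis is the log2 difference of both knockouts from wild type, and the vertical axis is the log2 difference of MyoD-/- from p53-/-, which does not use wild type. Points near the horizontal line, such as Myom2, Igfbp6 and Apbb1ip, moved by like amounts in both knockouts, while Ccn2, Tfpi2, Chrna1 and Mest lie far from it. Orange marks the 378 genes called different between the knockouts and green the 639 that were not.

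Myod1, the gene targeted in MyoD-/-, had its lowest signals in that genotype, and it was also lower in p53-/- than in wild type. Its signal was 5352, 4024 and 5152 in MyoD-/- and 23450, 24450 and 18500 in p53-/-, against 37440, 40170 and 45190 in wild type. The 3 genotypes did not overlap. Both knockouts together fell by 1.98 ± 0.13 on the log2 scale (SE, n = 9, adjusted p = 2.96e-05), with shifts of -3.07 in MyoD-/- and -0.89 in p53-/-. Whether the probe set lies in the deleted part of the gene was not tested, and Trp53 was not analysed here because it had no tested probe set with a single symbol.

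Among the other muscle transcription factors, Myf5 stood higher and Myog lower in both knockouts. Myf5, the family member that marks committed but undifferentiated myoblasts, had signals of 3548, 3419 and 6026 in MyoD-/- and 6009, 5032 and 4216 in p53-/-, against 165, 1041 and 973 in wild type. All 6 knockout arrays lay above all 3 wild-type arrays, of which wild type A was the lowest. The log2 fold change was 2.85 ± 0.43 (SE, adjusted p = 0.00267), with 2.72 in MyoD-/- and 2.98 in p53-/-. Myog, which encodes myogenin, had signals of 291, 281 and 438 in MyoD-/- and 2612, 2746 and 254 in p53-/-, against 7278, 6891 and 3772 in wild type. p53-/- C was as low as MyoD-/-, while p53-/- A and B lay between. Myog fell by 2.99 ± 0.59 on the log2 scale (SE, adjusted p = 0.00947), and without wild type A it was not called (adjusted p = 0.0511), nor with the knockouts as 1 group (adjusted p = 0.0649). With scan session as a block neither was called (adjusted p = 0.293 for Myf5 and 0.279 for Myog).

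Of 35 tested myogenic regulators, 4 were higher (11.4%) and 7 lower (20.0%). Beside Myf5 the higher ones were Myf6, Twist1 and Twist2. Myf6 met the filter on low signal in the knockouts only, and Smyd1, among the lower genes, in wild type only, so their calls are no support. Twist1, a repressor of muscle differentiation, had signals of 3253, 3711 and 2987 in MyoD-/- and 791, 375 and 270 in p53-/-, against 489, 413 and 259 in wild type. Only the MyoD-/- arrays were high, and its call between both knockouts and wild type (log2 1.56 ± 0.27, SE, adjusted p = 0.00553) rested on that genotype. The lower genes included Smyd1, a methyltransferase of striated muscle, which had signals of 22.7, 62.1 and 63.5 in MyoD-/- and 82.6, 223 and 78.9 in p53-/-, against 573, 1063 and 538 in wild type. Here the arrays of both knockouts lay below those of wild type, at log2 -2.38 ± 0.32 (SE, adjusted p = 0.00146). Id3, an inhibitor of MyoD activity, fell by 1.12 on the log2 scale (adjusted p = 0.00205), by more in MyoD-/- (-1.77) than in p53-/- (-0.47).

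Genes of the sarcomere, the contractile unit of muscle, fell steeply. Of 29 tested genes of the thick and thin filaments 17 were lower (58.6%) and none higher, against 6.05% lower and 5.24% higher over all genes. Knockout arrays lay wholly below wild type for 16 of the 29, against 634 of all 9013 genes. The median log2 fold change of the 29 was -1.79, and it was -1.53 in MyoD-/- and -1.62 in p53-/- against their common wild type. Leaving out any single sample kept the count of lower genes between 16 and 19. Of the 17, Myh3 met the filter on low signal in wild type only, so its call is no support. Acta1, the skeletal muscle alpha-actin, had signals of 294, 788 and 537 in MyoD-/- and 874, 3184 and 637 in p53-/-, against 20970, 26510 and 10860 in wild type. The lowest wild-type array was more than 3-fold above the highest knockout array, which was p53-/- B. Both knockouts together fell by 4.41 ± 0.47 on the log2 scale (SE, adjusted p = 0.000346).

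Myh3, the embryonic myosin heavy chain, had signals of 5.40, 4.57 and 18.6 in MyoD-/- and 13.3, 150 and 10.6 in p53-/-, against 1807, 3946 and 1396 in wild type. Apart from p53-/- B the knockout arrays lay below the offset, so the log2 shift of -4.60 ± 0.40 (SE, adjusted p = 0.000117) is an understatement. Tnnt3, the fast skeletal troponin T, showed the same order, at 27.5, 13.5 and 72.1 in MyoD-/- and 26.4, 319 and 10.9 in p53-/-, against 2529, 2920 and 1586 in wild type (log2 -4.29 ± 0.47, SE, adjusted p = 0.000384). Myom2, an M-band protein measured on U74Cv2, fell by nearly equal amounts in both genotypes on its chosen probe set. Its signals were 660, 169 and 889 in MyoD-/- and 520, 930 and 209 in p53-/-, against 6413, 10270 and 4039 in wild type, with log2 shifts of -3.46 in MyoD-/- and -3.47 in p53-/-. Its other probe sets disagreed, with log2 fold changes of -3.81 (adjusted p = 0.00332), -1.26 (adjusted p = 0.0131) and 0.09 (adjusted p = 0.935). Myl1, an alkali myosin light chain, was lower still in MyoD-/- than in p53-/-. It stood at 193, 289 and 316 in MyoD-/- and 827, 1624 and 553 in p53-/-, against 6904, 10150 and 4874 in wild type, and the knockouts differed by -1.57 log2 units (adjusted p = 0.0158). In Car3, Myh3, Tnnt3, Acta1 and Myl1, p53-/- B was the highest of the 6 knockout arrays.

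**Figure D2:**
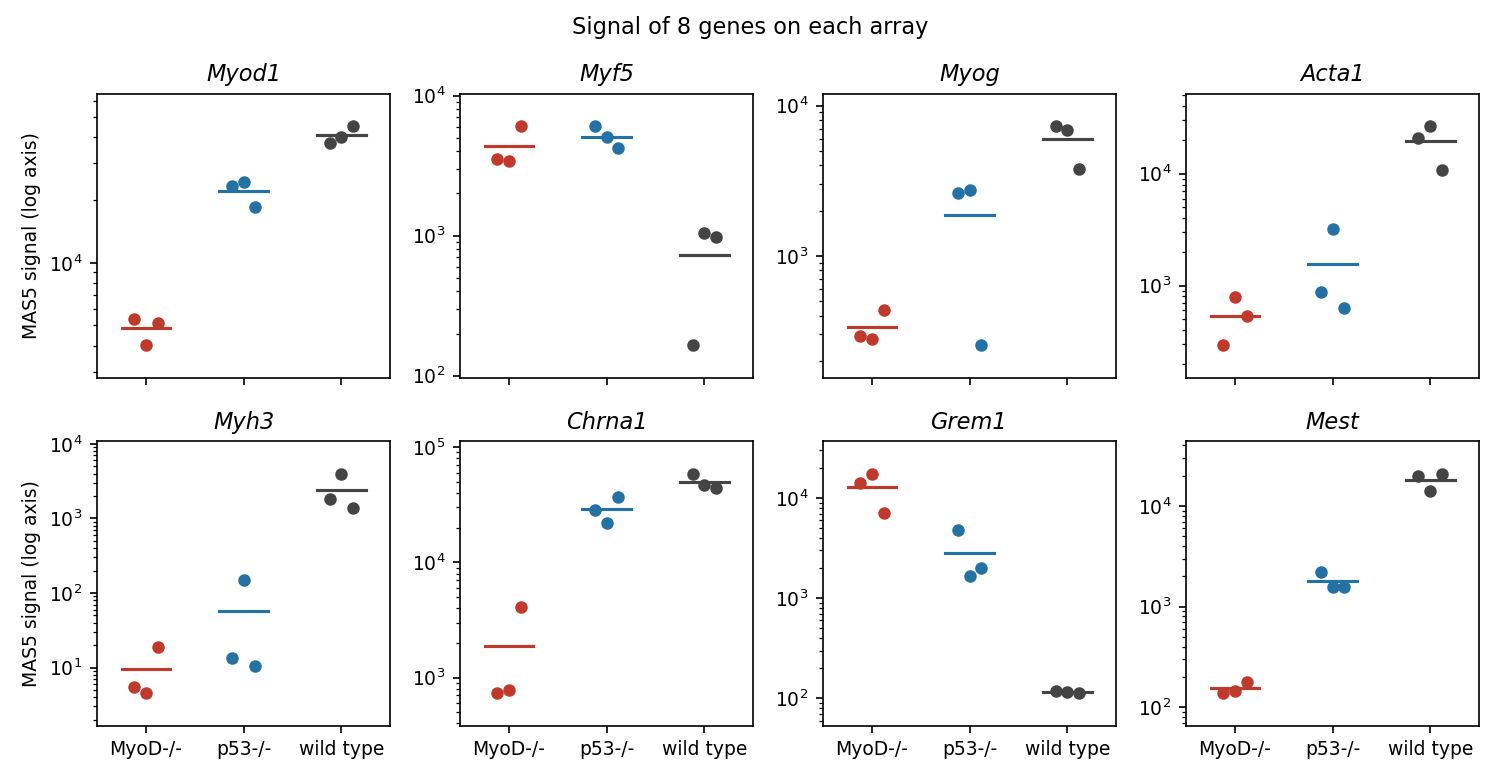
Signals of 8 genes on each array (MAS5 intensity, log axis), with MyoD-/- and p53-/- left of wild type; points are samples A, B and C from left to right and bars are arithmetic means of 3. Myod1, Myog, Acta1, Myh3, Chrna1 and Mest lie highest in wild type, and Myf5 and Grem1 lowest. Chrna1 is below wild type in p53-/- and far below it in MyoD-/-, while Myf5 is alike in both knockouts. Myf5, Myog, Acta1 and Myh3 each have 1 sample apart from the other 2 of its genotype.

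The machinery that couples nerve signals to contraction was lower as well. Of 16 tested genes of excitation-contraction coupling and the calcium store 10 were lower (62.5%) and none higher, against 6.05% lower and 5.24% higher over all genes. Their median log2 fold change was -0.72. Of the 10 lower ones, 2 met the filter on low signal in wild type only. The count of lower genes was 5 without wild type A and 5 without wild type B. Ryr1, the calcium release channel, had signals of 22.7, 53.9 and 32.6 in MyoD-/- and 176, 224 and 72.0 in p53-/-, against 1506, 2174 and 1568 in wild type. All knockout arrays lay far below wild type, and its log2 fold change was -3.60 ± 0.27 (SE, adjusted p = 5.42e-05). Atp2a1, the fast-muscle calcium pump, stood at 205, 309 and 272 in MyoD-/- and 507, 608 and 330 in p53-/-, against 2574, 2741 and 1742 in wild type (log2 -2.51 ± 0.21, SE, adjusted p = 0.000103). Cav3, the muscle caveolin, fell by 2.41 on the log2 scale (adjusted p = 0.00287).

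Of 10 tested genes of the acetylcholine receptor and the synapse 6 were lower (60%), and the 2 knockouts differed in 5 of these 6. Chrna1, the receptor's alpha subunit, was measured on U74Cv2 at 738, 788 and 4066 in MyoD-/- and 28520, 21910 and 37170 in p53-/-, against 58410, 47070 and 44300 in wild type. The p53-/- arrays lay below wild type and the MyoD-/- arrays far below, with log2 shifts of -0.79 in p53-/- and -5.08 in MyoD-/-. A second probe set of Chrna1, on U74Av2, had shifts of -1.1 in p53-/- and -5.6 in MyoD-/-. Chrng, the gamma subunit of the embryonic receptor, was low in both, at 445, 93.8 and 595 in MyoD-/- and 906, 1398 and 1194 in p53-/-, against 7422, 8464 and 5316 in wild type (log2 -3.37 ± 0.38, SE, adjusted p = 0.000439). Chrnd, the delta subunit, fell by 2.58 on the log2 scale (adjusted p = 0.00298) and Chrnb1, the beta subunit, by 1.11 (adjusted p = 0.00205), both further in MyoD-/-.

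Sequence before the transcription start is shown for 5 of these lower genes because the E-box CAGCTG, a form of the motif that MyoD-family factors bind, is present in them. The letters CAGCTG read the same on both strands. They were searched in the 250 bases before each RefSeq start (GRCm38.p6), and a gene counted if any of its starts had a match. They were present for 1004 of 7193 tested genes with a promoter entry (14%), for 108 of 452 lower genes (23.9%) and for 46 of 379 higher genes (12.1%). Lower genes of the text without them include Myh3, Ryr1, Sgca, Cdh15, Myog and Chrnb1. Among genes lower by at least 4-fold 25 of 59 had them (42.4%), and among genes higher by at least 4-fold 2 of 23 (8.7%). Among the 15 lower and 15 higher genes moved most in the less affected knockout, they were present for 4 of 9 lower (44.4%) and 3 of 13 higher genes (23.1%) with a promoter entry. These shares describe letters in a window and do not show binding. The 250 bases are printed 5′ to 3′ on the gene's strand with CAGCTG in capitals. Acta1 (chr8:123894776-123895025, minus strand) and Myl1 (chr1:66945057-66945306, minus strand) were among the 15 genes lowered most in both knockouts, as was Pgam2, the muscle phosphoglycerate mutase (chr11:5803797-5804046, minus strand). Chrna1 (chr2:73580339-73580588, minus strand) and Chrng (chr1:87205561-87205810, plus strand) hold 2 copies each.
Acta1: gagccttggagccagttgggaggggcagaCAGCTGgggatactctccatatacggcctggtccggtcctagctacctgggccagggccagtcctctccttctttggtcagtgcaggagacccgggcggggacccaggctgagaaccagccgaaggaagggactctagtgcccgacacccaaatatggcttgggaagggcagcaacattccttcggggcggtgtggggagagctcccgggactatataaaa
Myl1: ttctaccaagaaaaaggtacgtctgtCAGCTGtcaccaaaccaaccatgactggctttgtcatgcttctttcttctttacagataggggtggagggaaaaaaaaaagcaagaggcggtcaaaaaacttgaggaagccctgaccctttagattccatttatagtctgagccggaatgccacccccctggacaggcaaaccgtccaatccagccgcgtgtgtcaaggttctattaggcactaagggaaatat
Pgam2: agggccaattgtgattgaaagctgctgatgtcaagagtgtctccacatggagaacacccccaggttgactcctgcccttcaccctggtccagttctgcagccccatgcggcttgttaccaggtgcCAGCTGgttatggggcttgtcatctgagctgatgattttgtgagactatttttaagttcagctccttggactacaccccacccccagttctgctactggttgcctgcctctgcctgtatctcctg
Chrna1: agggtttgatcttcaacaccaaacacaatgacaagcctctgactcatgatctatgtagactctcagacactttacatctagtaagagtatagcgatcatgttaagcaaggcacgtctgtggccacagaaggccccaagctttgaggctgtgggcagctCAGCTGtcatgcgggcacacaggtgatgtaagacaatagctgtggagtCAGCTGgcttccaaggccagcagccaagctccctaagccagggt
Chrng: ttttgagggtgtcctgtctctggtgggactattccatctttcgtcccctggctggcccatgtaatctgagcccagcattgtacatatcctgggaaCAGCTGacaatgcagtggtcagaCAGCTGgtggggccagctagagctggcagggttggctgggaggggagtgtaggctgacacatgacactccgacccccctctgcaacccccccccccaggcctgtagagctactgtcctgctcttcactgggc
The copy in Acta1 ends 215 bases before the start and that in Myl1 218 bases before it, while that in Pgam2 ends 119 bases before. The copies of Chrna1 end 86 and 38 bases before the start, and those of Chrng 149 and 126 bases before it.

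Genes of fusion were called in both directions. Of 19 tested genes of fusion and recognition 6 were lower (31.6%), 3 higher (15.8%) and 10 not called. The median log2 fold change was 0.11, and 5 were higher without wild type C. Mymx, the small membrane protein that completes myoblast fusion, was measured on U74Cv2 at 280, 35.3 and 40.2 in MyoD-/- and 718, 1106 and 65.3 in p53-/-, against 3970, 6459 and 2690 in wild type (log2 -3.66 ± 0.59, SE, adjusted p = 0.00357). The knockout arrays were spread widely but did not reach wild type. Cdh15, the cadherin of myoblasts, stood at 545, 486 and 508 in MyoD-/- and 1635, 2018 and 1383 in p53-/-, against 5012, 4044 and 3091 in wild type (log2 -2.01 ± 0.17, SE, adjusted p = 9.69e-05). Adam12, a membrane metalloprotease of the same list, was called 1.59 log2 units above wild type (adjusted p = 0.00557). Its shifts were 2.35 in MyoD-/- and 0.83 in p53-/-. Only the MyoD-/- arrays of Adam12 met the filter on low signal, so its call is no support.

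Of 14 tested genes of the dystrophin complex and membrane repair 8 were lower (57.1%) and 1 higher (7.14%). The lower count was 5 without wild type A and 5 without wild type B. Sgca, alpha-sarcoglycan, had signals of 488, 418 and 166 in MyoD-/- and 686, 756 and 97.3 in p53-/-, against 5529, 5300 and 6428 in wild type. Both knockouts lay about equally far below wild type, with shifts of -3.87 in MyoD-/- and -3.63 in p53-/- (log2 -3.75 ± 0.47 for both, SE, adjusted p = 0.000862). Of 19 tested genes of muscle energy and creatine 7 were lower (36.8%), 1 higher (5.26%) and 11 not called. Of the 7 lower ones, 2 met the filter on low signal in wild type only. Car3, carbonic anhydrase III, had the largest fall of all named genes, with signals of 27.1, 28.4 and 29.7 in MyoD-/- and 31.7, 368 and 36.5 in p53-/-, against 4129, 5350 and 2846 in wild type (log2 -5.01 ± 0.43, SE, adjusted p = 0.000104). Pgam2 was at 23.1, 12.7 and 24.3 in MyoD-/- and 11.6, 15.9 and 11.3 in p53-/-, against 678, 808 and 613 in wild type. All 6 knockout arrays were below the offset for Pgam2, so its log2 shift of -3.19 ± 0.27 (SE, adjusted p = 0.000101) is an understatement. Cox6a2, the muscle form of a cytochrome c oxidase subunit, fell by 2.45 on the log2 scale (adjusted p = 0.000384), and Pygm, the muscle glycogen phosphorylase, by 2.86 (adjusted p = 0.000878).

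**Figure D3:**
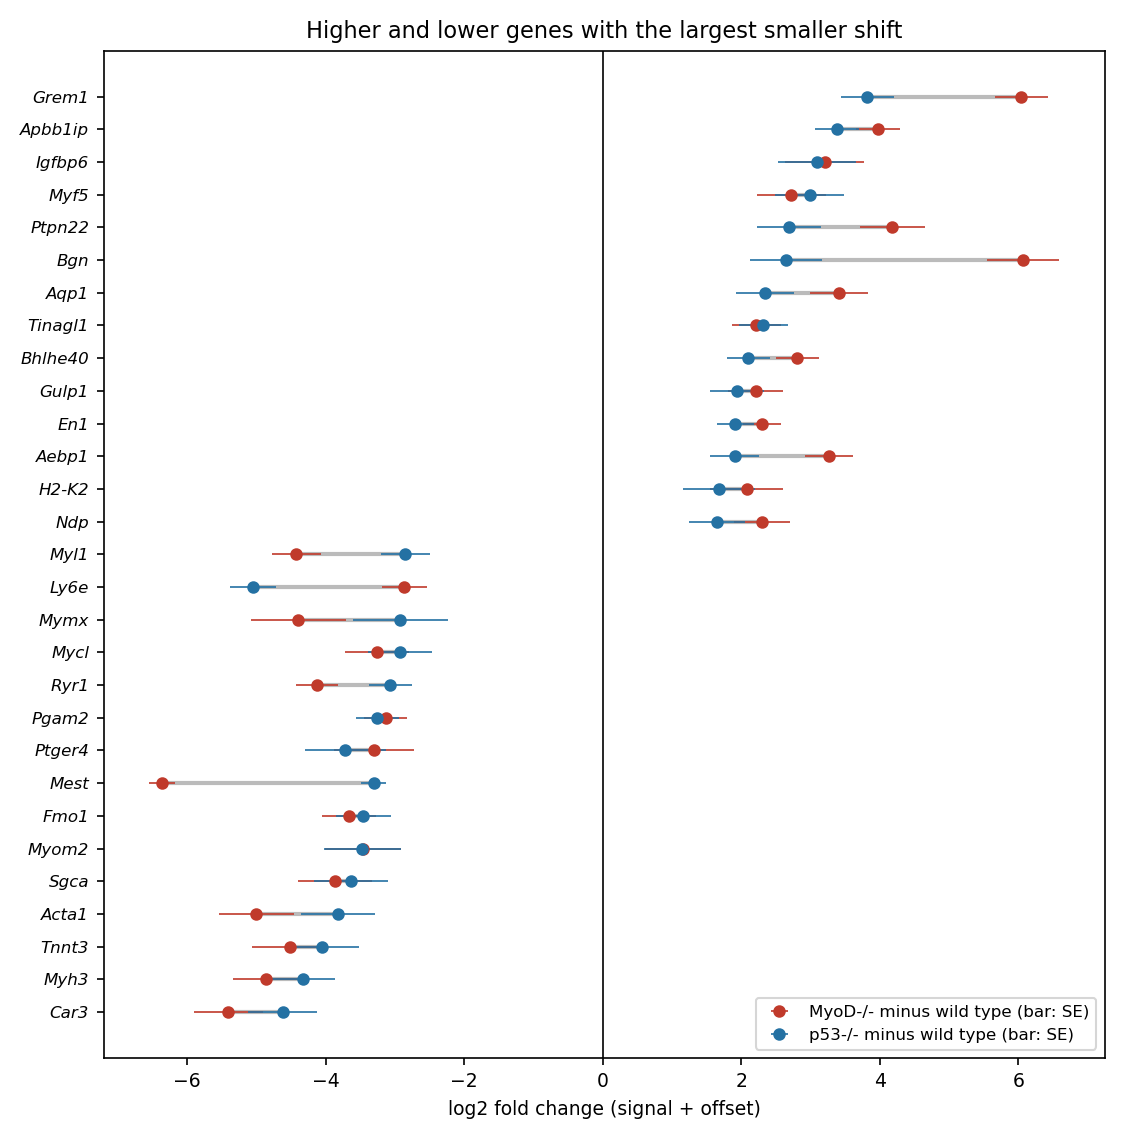
Genes among the 15 higher and 15 lower (1 higher gene is not shown) whose smaller shift, the lesser of the MyoD-/- and the p53-/- shift from wild type, was largest among called genes with arrays that do not overlap. Points are log2 fold changes of each knockout against the same wild-type arrays and bars are limma standard errors. The 2 points of Myom2, Pgam2, Igfbp6 and Tinagl1 nearly coincide, while those of Bgn, Grem1 and Mest are far apart.

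Several genes outside the contractile programme were low in both knockouts. Fmo1, a flavin-containing monooxygenase, had signals of 327, 105 and 171 in MyoD-/- and 283, 260 and 148 in p53-/-, against 4838, 1757 and 3563 in wild type (log2 -3.56 ± 0.34, SE, adjusted p = 0.000183). Ptger4, a receptor of prostaglandin E2, stood at 40.8, 461 and 520 in MyoD-/- and 274, 78.8 and 216 in p53-/-, against 4081, 2141 and 3427 in wild type (log2 -3.51 ± 0.50, SE, adjusted p = 0.002). The knockouts of neither gene reached the lowest wild-type array. Mycl, a transcription factor of the Myc family, fell by 3.10 on the log2 scale (adjusted p = 0.00114) and Rgs5, a regulator of G-protein signalling, by 2.12 (adjusted p = 0.000258). Ly6e, a lipid-anchored surface protein, was lowest in p53-/-, at 7246, 3927 and 4077 in MyoD-/- and 900, 646 and 1792 in p53-/-, against 31460, 35810 and 41280 in wild type. Lrrn1, a leucine-rich repeat membrane protein, was lowest in MyoD-/-, at 41.7, 95.2 and 147 in MyoD-/- and 2371, 2827 and 1394 in p53-/-, against 13620, 12100 and 13190 in wild type.

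Imprinted genes, which are expressed from a single parental copy and many of which act on growth, were among the genes of large change. Of 17 tested 4 were lower (23.5%; Mest, Peg3, Igf2 and Plagl1) and 2 higher (11.8%; Rasgrf1 and Peg10). Mest, which encodes a hydrolase-like protein, had signals of 139, 146 and 177 in MyoD-/- and 2195, 1581 and 1585 in p53-/-, against 20020, 14260 and 20820 in wild type. The 3 genotypes were separate, and its log2 fold change was -4.84 ± 0.16 (SE, adjusted p = 2.01e-07). Plagl1, a zinc finger protein that restrains growth, was measured on U74Cv2 at 5849, 4704 and 6324 in MyoD-/- and 13680, 9874 and 9105 in p53-/-, against 66830, 28200 and 90380 in wild type (log2 -2.82 ± 0.31, SE, adjusted p = 0.000371). Peg3, a zinc finger protein expressed in muscle progenitors, fell by 3.75 on the log2 scale (adjusted p = 0.000617). Rasgrf1, an exchange factor of Ras, was high in MyoD-/- alone, at 7346, 8840 and 5282 on U74Cv2, with 237, 142 and 215 in p53-/- and 186, 200 and 149 in wild type.

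The insulin-like growth factor axis, which drives muscle growth and differentiation, shifted in parts. Of 10 tested members 3 were lower (30%) and 1 higher (10%). Igf2, the ligand that myoblasts themselves make as they differentiate, had signals of 7926, 8179 and 3841 in MyoD-/- and 1745, 4777 and 893 in p53-/-, against 20710, 22540 and 24860 in wild type. Both knockouts lay below wild type, and p53-/- was the lower (log2 -2.66 ± 0.42 for both, SE, adjusted p = 0.00316). Igfbp3, a binding protein and p53 target, stood at 110, 127 and 71.1 in MyoD-/- and 514, 181 and 412 in p53-/-, against 1649, 2865 and 2258 in wild type (log2 -3.11 ± 0.28, SE, adjusted p = 0.000133). Igfbp6, a binding protein with a preference for Igf2, was higher instead, at 2552, 2266 and 1520 in MyoD-/- and 3524, 3341 and 565 in p53-/-, against 157, 99.5 and 267 in wild type (log2 3.15 ± 0.49, SE, adjusted p = 0.00307). p53-/- C was its lowest knockout array and still above every wild-type array. Igf1 was not called (log2 -0.07, adjusted p = 0.8), with knockout signals of 1947 to 2526 and wild-type signals of 2280 to 2362.

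Gas6 and Mstn, which encode secreted proteins, and Hes6 were low in both knockouts. Gas6, a ligand of the TAM receptor kinases, had signals of 284, 108 and 227 in MyoD-/- and 973, 720 and 926 in p53-/-, against 6592, 4953 and 2987 in wild type (log2 -3.24 ± 0.27, SE, adjusted p = 9.69e-05). Mstn, which encodes myostatin, a restraint on muscle growth, stood at 150, 109 and 113 in MyoD-/- and 90.8, 125 and 41.9 in p53-/-, against 568, 433 and 384 in wild type (log2 -1.64 ± 0.26, SE, adjusted p = 0.00349). Both genes had knockout arrays wholly below wild type. Hes6, a helix-loop-helix protein that promotes differentiation, fell by 1.45 on the log2 scale on U74Cv2 (adjusted p = 0.000213), as the member with the smallest p of the 4 lower among 22 tested Notch pathway genes. That count (18.2% of the list) was 2 without wild type A, B or C.

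By the chosen probe set of each gene, the largest rise in the less affected knockout was that of Grem1, a secreted antagonist of bone morphogenetic proteins. Its signal was 14180, 17370 and 7045 in MyoD-/- and 4747, 1660 and 2024 in p53-/-, against 120, 117 and 114 in wild type. The wild-type arrays were nearly identical and the knockout arrays more than 10-fold above them, at log2 4.93 ± 0.33 (SE, adjusted p = 4.03e-05). Apbb1ip, an adaptor that links Rap1 to integrin activation, rose by like amounts in the 2 genotypes. It stood at 4932, 6942 and 4618 in MyoD-/- and 3633, 2114 and 5831 in p53-/-, against 210, 324 and 322 in wild type (log2 3.68 ± 0.27, SE, adjusted p = 5.42e-05). Ptpn22, a tyrosine phosphatase best known from lymphocytes, had signals of 6323, 4094 and 1537 in MyoD-/- and 926, 1590 and 1100 in p53-/-, against 87.5, 253 and 78.1 in wild type (log2 3.43 ± 0.40, SE, adjusted p = 0.000602).

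Among the other higher genes, Aqp1, a water channel, had signals of 4015, 3435 and 3296 in MyoD-/- and 1938, 1678 and 1433 in p53-/-, against 392, 78.3 and 537 in wild type (log2 2.88 ± 0.36, SE, adjusted p = 0.000871). En1, a homeobox transcription factor, was at 1403, 1524 and 1210 in MyoD-/- and 740, 1307 and 1136 in p53-/-, against 270, 132 and 309 in wild type (log2 2.10 ± 0.23, SE, adjusted p = 0.000427). Both had every knockout array above every wild-type array. Bhlhe40, a helix-loop-helix repressor, rose by 2.45 log2 units (adjusted p = 0.000423), Tinagl1, a basement membrane protein, by 2.27 (adjusted p = 0.00137), Gulp1, an adaptor of engulfment measured on U74Cv2, by 2.07 (adjusted p = 0.00387), and Ndp, a Wnt-receptor ligand, by 1.98 (adjusted p = 0.00575). H2-K2, a class I histocompatibility gene, was called at 1.87 (adjusted p = 0.0264), and lost its call without p53-/- B (0.054), p53-/- C (0.0526), wild type B (0.0633) or wild type C (0.0544). Class I genes are near copies of each other, so the identity of the H2-K2 signal is uncertain.

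Genes of the extracellular matrix were higher mostly through MyoD-/-. Of 36 tested matrix proteins and cross-linkers 8 were higher (22.2%) and 2 lower (5.56%), against 5.24% and 6.05% over all genes. All 8 higher genes differed between the knockouts, as did 193 of all 472 higher genes. The lower count was 1 without MyoD-/- B, MyoD-/- C, wild type A or wild type C. The median log2 fold change was 0.63 in MyoD-/- and 0.06 in p53-/- against their common wild type. Bgn, the proteoglycan biglycan, was raised in both, at 50650, 50910 and 42350 in MyoD-/- and 10470, 5512 and 1444 in p53-/-, against 635, 561 and 762 in wild type (log2 4.35 ± 0.45, SE, adjusted p = 0.000319). Other probe sets of Bgn gave 6.61 on U74Cv2, where the smaller shift of 4.25 exceeded that of Grem1 (3.82), and 1.93 on U74Av2. Ccn2, connective tissue growth factor, stood at 11850, 38820 and 38790 in MyoD-/- and 767, 821 and 1318 in p53-/-, against 461, 390 and 168 in wild type. Its p53-/- arrays lay above wild type (log2 shift 1.39) and its MyoD-/- arrays far above (6.09), and the knockouts differed by 4.70 log2 units (adjusted p = 0.000168). Lox, which cross-links collagen, had signals of 9393, 12320 and 5006 in MyoD-/- and 332, 483 and 175 in p53-/-, against 202, 11.1 and 214 in wild type, with p53-/- overlapping wild type. Aebp1, a collagen-binding matrix protein, was above wild type in all 6 knockout arrays (log2 2.58 ± 0.31, SE, adjusted p = 0.000626). Fbln2, fibulin 2, was called at log2 3.12 (adjusted p = 0.000387), with 5.02 in MyoD-/- and 1.21 in p53-/-, whose lowest array, at 790, lay within the wild-type range. A second probe set of Fbln2 had shifts of 1.62 in MyoD-/- and 0.22 in p53-/- and was not called (adjusted p = 0.166). Lama2, the laminin chain of the muscle basement membrane, was lower in both, at 163, 139 and 121 in MyoD-/- and 454, 584 and 408 in p53-/-, against 1375, 1579 and 1116 in wild type.

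Of 25 tested genes of collagens and their processing 8 were higher (32%) and 4 lower (16%). Of the 8, 1 met the filter on low signal in the knockouts only. The higher count was 4 without p53-/- A, wild type B or wild type C and 5 without MyoD-/- B or p53-/- C, and the lower count was 2 without wild type A and 1 without wild type B. Col8a1, a short-chain collagen, had signals of 10070, 7605 and 5891 in MyoD-/- and 2712, 2098 and 1423 in p53-/-, against 984, 844 and 697 in wild type (log2 2.15 ± 0.22, SE, adjusted p = 0.000258), so both knockouts lay above wild type. Col1a1, the alpha 1 chain of collagen I, had 4808, 4827 and 5216 in MyoD-/- and 1114, 997 and 651 in p53-/-, against 756, 1080 and 1147 in wild type, so p53-/- overlapped wild type. A dimmer-in-wild-type probe set of Col1a1 disagreed, with 356, 486 and 279 in p53-/- and 16.6, 180 and 26.9 in wild type. Col18a1, the precursor of endostatin, was lower in both, at 6077, 4086 and 3520 in MyoD-/- and 5640, 5469 and 5549 in p53-/-, against 13370, 16940 and 9986 in wild type (log2 -1.39 ± 0.19, SE, adjusted p = 0.00145).

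The markers of other cell types were read beside the matrix genes, from a short defining list and a longer list for each type. Of 11 fibroblast markers on the short list, 6 were tested and 2 were higher, Col1a1 and Twist2, while Col1a2, Col3a1, Pdgfra and Prrx1 were not called, and Thy1, Dcn, Lum, Fap and Pdgfrb did not pass the filter. On the longer list 4 of 11 tested were higher (36.4%) and none lower, Twist1 and S100a4 beside these 2, with a median log2 fold change of 0.98 in MyoD-/- and -0.12 in p53-/-. None of the 4 kept its call with the knockouts as 1 group or with scan session as a block. The summed fibroblast signal was 20620 to 22140 in MyoD-/- and 9284 to 14830 in p53-/-, against 14580 to 17000 in wild type. Smooth muscle markers summed to 15640 to 29900 in MyoD-/- and 4718 to 5534 in p53-/-, against 7742 to 22630 in wild type, and none of 4 tested on the short list was called, while on the longer list 3 of 11 were lower, Rgs5, Des and Notch3. None of the tested markers on the short lists of adipocytes (1), endothelium (1), macrophages and leukocytes (2) or Schwann and neural cells (4) was called, by limma with the same adjustment. On the longer lists 1 of 3 adipocyte markers (Scd1, log2 1.33), 1 of 9 macrophage and leukocyte markers (Cd14, log2 1.02) and 1 of 5 bone and cartilage markers (Tnfrsf11b, log2 1.23) were higher. Of 11 Schwann and neural markers Pmp22 was higher (log2 1.38) and Ncam1 lower, and none of 3 endothelial markers was called. Of these added markers Notch3 lost its call without wild type A, B or C (adjusted p of 0.0524, 0.0936 and 0.0766), S100a4 without p53-/- A or B (0.0583 and 0.0521) or wild type A or B (0.0971 and 0.0758), Scd1 without wild type A or B (0.0533 and 0.05002), and Tnfrsf11b and Pmp22 without wild type B (0.0672 and 0.0978). The myoblast markers summed to 14120 to 17850 in MyoD-/- and 31870 to 40050 in p53-/-, against 56200 to 65420 in wild type, with 5 of 6 tested lower and Myf5 higher. The part of other cell types in the matrix result was not tested.

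Desmin, one of the proteins by which wild-type purity was judged, was itself lower in the knockouts. Des had signals of 200, 79.5 and 305 in MyoD-/- and 1583, 1726 and 839 in p53-/-, against 3897, 3560 and 3551 in wild type (log2 -2.68 ± 0.29, SE, adjusted p = 0.00036). The 3 genotypes did not overlap. Met, the c-met receptor used for the knockouts, was not called between both knockouts and wild type (log2 -0.45, adjusted p = 0.183), with 763, 436 and 510 in MyoD-/- and 1368, 1389 and 977 in p53-/-, against 1197, 1306 and 992 in wild type. Of 22 tested satellite cell markers 7 were lower (31.8%) and 4 higher (18.2%), and 4 were lower without wild type A. Cxcr4, a chemokine receptor, fell by 2.02 on the log2 scale (adjusted p = 0.000189) and Ncam1, an adhesion molecule, by 1.20 (adjusted p = 0.000819). Cd34, found on the surface of satellite cells at rest, was higher, at 3239, 1360 and 826 in MyoD-/- and 343, 161 and 294 in p53-/-, against 32.3, 205 and 102 in wild type. The p53-/- arrays overlapped wild type, and the call (log2 2.12 ± 0.42, SE, adjusted p = 0.01) was lost without wild type A (adjusted p = 0.0536).

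Targets of p53 were lower in the combined comparison mostly, but not wholly, through p53-/-. Of 39 tested targets 16 were lower (41%) and 2 higher (5.13%). The knockouts differed in 12 of these 18, as they did in 378 of all 1017 called genes. The count of lower targets was 7 without wild type A and 9 without wild type C. The median log2 fold change was -0.23 in MyoD-/- and -0.74 in p53-/-. Ccng1, cyclin G1, had signals of 4376, 3630 and 4057 in MyoD-/- and 751, 780 and 676 in p53-/-, against 7658, 6767 and 5061 in wild type, so that both knockouts lay below wild type and p53-/- by far the lower. Cdkn1a, the cell cycle inhibitor p21, stood at 6603, 4878 and 3640 in MyoD-/- and 966, 1887 and 1194 in p53-/-, against 6852, 6502 and 8124 in wild type, with a log2 shift of -0.54 in MyoD-/- and -2.40 in p53-/-. Ak1, adenylate kinase 1, was low in p53-/- alone, at 1190, 1348 and 1139, with 10890, 7745 and 7205 in MyoD-/- and 7508, 7040 and 8036 in wild type. Mdm2, the ligase that degrades p53, had a log2 shift of -0.05 in MyoD-/- and -2.05 in p53-/- on U74Cv2, and its combined call (adjusted p = 0.00996) was lost without wild type A (0.0529) or C (0.0507).

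Gadd45a, a growth arrest gene induced by p53 and by other stress signals, was lower in MyoD-/- than in p53-/-. Its signals were 810, 877 and 1302 in MyoD-/- and 2439, 2547 and 2488 in p53-/-, against 15170, 12140 and 6037 in wild type (log2 -2.68 ± 0.25, SE, adjusted p = 0.000181). All 3 genotypes were separate. Of 18 tested cell cycle inhibitors 6 were lower (33.3%), and Gas2, a growth-arrest protein that binds the cytoskeleton, was the 1 higher gene (5.56%). Gas2 stood at 1663, 1214 and 1722 in MyoD-/- and 750, 795 and 736 in p53-/-, against 223, 174 and 296 in wild type (log2 1.96 ± 0.17, SE, adjusted p = 0.000117). Cdkn2b, the inhibitor p15, was low in MyoD-/- alone, with log2 shifts of -2.76 in MyoD-/- and -0.18 in p53-/-.

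Of 50 tested genes of G2, M phase and mitosis 12 were higher (24%), none lower and 38 not called. Of the 12, 1 met the filter on low signal in the knockouts only. The median log2 fold change of the 50 was 0.38, with 0.13 in MyoD-/- and 0.57 in p53-/-. The count of 12 depended on single samples, with 3 without wild type B, 4 without wild type A, 6 without wild type C and 7 without MyoD-/- C. It was 1 with the knockouts as 1 group and 0 with scan session as a block. Ccnb2, cyclin B2, had signals of 15910, 12640 and 13670 in MyoD-/- and 16620, 14720 and 14310 in p53-/-, against 8577, 9565 and 10150 in wild type (log2 0.63 ± 0.10, SE, adjusted p = 0.00429). Both knockouts lay above wild type to a like degree. Plk4, the kinase of centriole duplication, was higher mainly in p53-/-, at 4140, 2965 and 4439 in MyoD-/- and 6114, 6321 and 6260 in p53-/-, against 2466, 3189 and 2990 in wild type. Of 53 tested genes of G1/S and DNA replication 5 were higher and 1 lower, near the share of all genes, and Ccnd3, the cyclin D3 of differentiating muscle, was the lower one (log2 -1.0 ± 0.11, SE, adjusted p = 0.000349). Leaving out a sample moved the 5 to between 1 and 10, and the count was highest without MyoD-/- B.

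Of 22 tested anti-apoptotic genes 6 were higher (27.3%) and 2 lower (9.09%). The 6 became 3 without wild type A and 3 without wild type B, and 1 of the 6 met the filter on low signal in the knockouts only. Pim1, a survival kinase, had signals of 3127, 2984 and 2536 in MyoD-/- and 2738, 2743 and 3111 in p53-/-, against 1484, 962 and 1309 in wild type. Its shifts were 1.18 in MyoD-/- and 1.17 in p53-/- (log2 1.17 ± 0.14 for both, SE, adjusted p = 0.000819). Tnfaip8, an inhibitor of apoptosis, was at 1110, 618 and 867 in MyoD-/- and 844, 1175 and 1224 in p53-/-, against 272, 381 and 397 in wild type (log2 1.30 ± 0.20, SE, adjusted p = 0.00313). Dapk2, a death-associated kinase, was lower by 1.78 log2 units (adjusted p = 0.000431), with -1.77 in MyoD-/- and -1.79 in p53-/-. The classic survival genes Bcl2 (log2 0.37, adjusted p = 0.23) and Bcl2l1 (log2 0.05, adjusted p = 0.85) were not called. A dim probe set of Bcl2 on U74Cv2 was called, with 677, 844 and 878 in MyoD-/- and 495, 484 and 392 in p53-/-, against 103.5, 118 and 166 in wild type (log2 1.60, adjusted p = 0.00265), so the probe sets of Bcl2 disagreed.

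Some enzymes of lipid synthesis, antioxidant defence and glycolysis were higher, and most members of these lists were not called. Of 27 tested genes of cholesterol and fatty acid synthesis 7 were higher (25.9%) and none lower, and 4 were called without wild type A. The knockouts differed in 1 of the 7. Knockout arrays lay wholly above wild type for 6 of the 7, and did not overlap it for 288 of all 472 higher genes. Of the 7, 1 met the filter on low signal in the knockouts only. Idi1, the isomerase that makes the building block of sterols, stood at 1307, 1097 and 1171 in MyoD-/- and 1304, 1682 and 1128 in p53-/-, against 616, 536 and 660 in wild type (log2 1.0 ± 0.15, SE, adjusted p = 0.00239). Scd2, a fatty acid desaturase, rose by 0.91 log2 units (adjusted p = 0.00426) and Ebp, a sterol isomerase, by 0.77 (adjusted p = 0.00373). Of 41 tested antioxidant and detoxification genes 9 were higher (22%) and 1 lower (2.44%), with the knockouts differing in 5 of these 10. The 9 became 4 without wild type A and 2 without wild type B. Gsr, glutathione reductase, had signals of 4697, 3638 and 3020 in MyoD-/- and 4435, 5099 and 4595 in p53-/-, against 1825, 2076 and 2463 in wild type (log2 0.97 ± 0.15, SE, adjusted p = 0.003). Prdx4, a peroxiredoxin of the endoplasmic reticulum, rose by 0.77 in MyoD-/- and 0.74 in p53-/- (log2 0.76 for both, adjusted p = 0.00143). Gsr and this probe set of Prdx4 had knockout arrays wholly above wild type. A second probe set of Prdx4, on U74Cv2, disagreed and was not called (log2 0.10, adjusted p = 0.709). Its shifts were 0.24 in MyoD-/- and -0.04 in p53-/-.

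Of 27 tested genes of glycolysis and the hypoxia response 8 were higher (29.6%) and 1 lower (3.7%), and the knockouts differed in 5 of these 9. Of the 8, 1 met the filter on low signal in the knockouts only. Tpi1, triosephosphate isomerase, stood at 28600, 21510 and 25470 in MyoD-/- and 17110, 18340 and 18110 in p53-/-, against 14470, 14470 and 13680 in wild type (log2 0.57 ± 0.10, SE, adjusted p = 0.00495). Both knockouts lay above wild type, MyoD-/- further. The lower gene, Egln3, a prolyl hydroxylase that marks hypoxia-inducible factor for breakdown and is induced as muscle cells differentiate, was low in MyoD-/- alone on U74Cv2, at 2701, 2769 and 3737, with 46850, 26140 and 45670 in p53-/- and 48320, 44280 and 61340 in wild type. Of 50 tested genes of the mitochondrial respiratory chain 1 was higher and 2 lower, and of 30 cytosolic ribosomal protein genes 2 were higher, both shares near those of all genes or below them.

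Growth signals outside the insulin-like axis split by genotype. Of 22 tested growth factor ligands 5 were higher (22.7%) and 2 lower (9.09%), and 2 were higher without wild type B. Of the 5 higher ones, 2 met the filter on low signal in the knockouts only. Bdnf, brain-derived neurotrophic factor, was high in MyoD-/- alone, at 14790, 25490 and 24210, with 3672, 3245 and 3290 in p53-/- and 3824, 3275 and 2748 in wild type. Kitl, stem cell factor, had log2 shifts of 2.60 in MyoD-/- and 0.51 in p53-/-. Of 26 tested metalloproteases and protease inhibitors 8 were higher (30.8%) and 2 lower (7.69%). Of these 8, 4 met the filter on low signal in the knockouts only, so their calls are no support. The higher count was 5 without MyoD-/- B and 3 without wild type B. Tfpi2, an inhibitor of serine proteases, differed between the knockouts by 5.06 log2 units, at 2405, 5937 and 1824 in MyoD-/- and 21.6, 19.5 and 30.9 in p53-/-, against 111, 20.2 and 28.4 in wild type. Of 24 tested growth factor receptors none was higher and 3 were lower (12.5%, against 6.05% over all genes). The lower count was 1 without wild type B. Among the 3 was Ddr1, a collagen receptor kinase, lower by 1.19 log2 units (adjusted p = 0.000973).

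**Figure D4:**
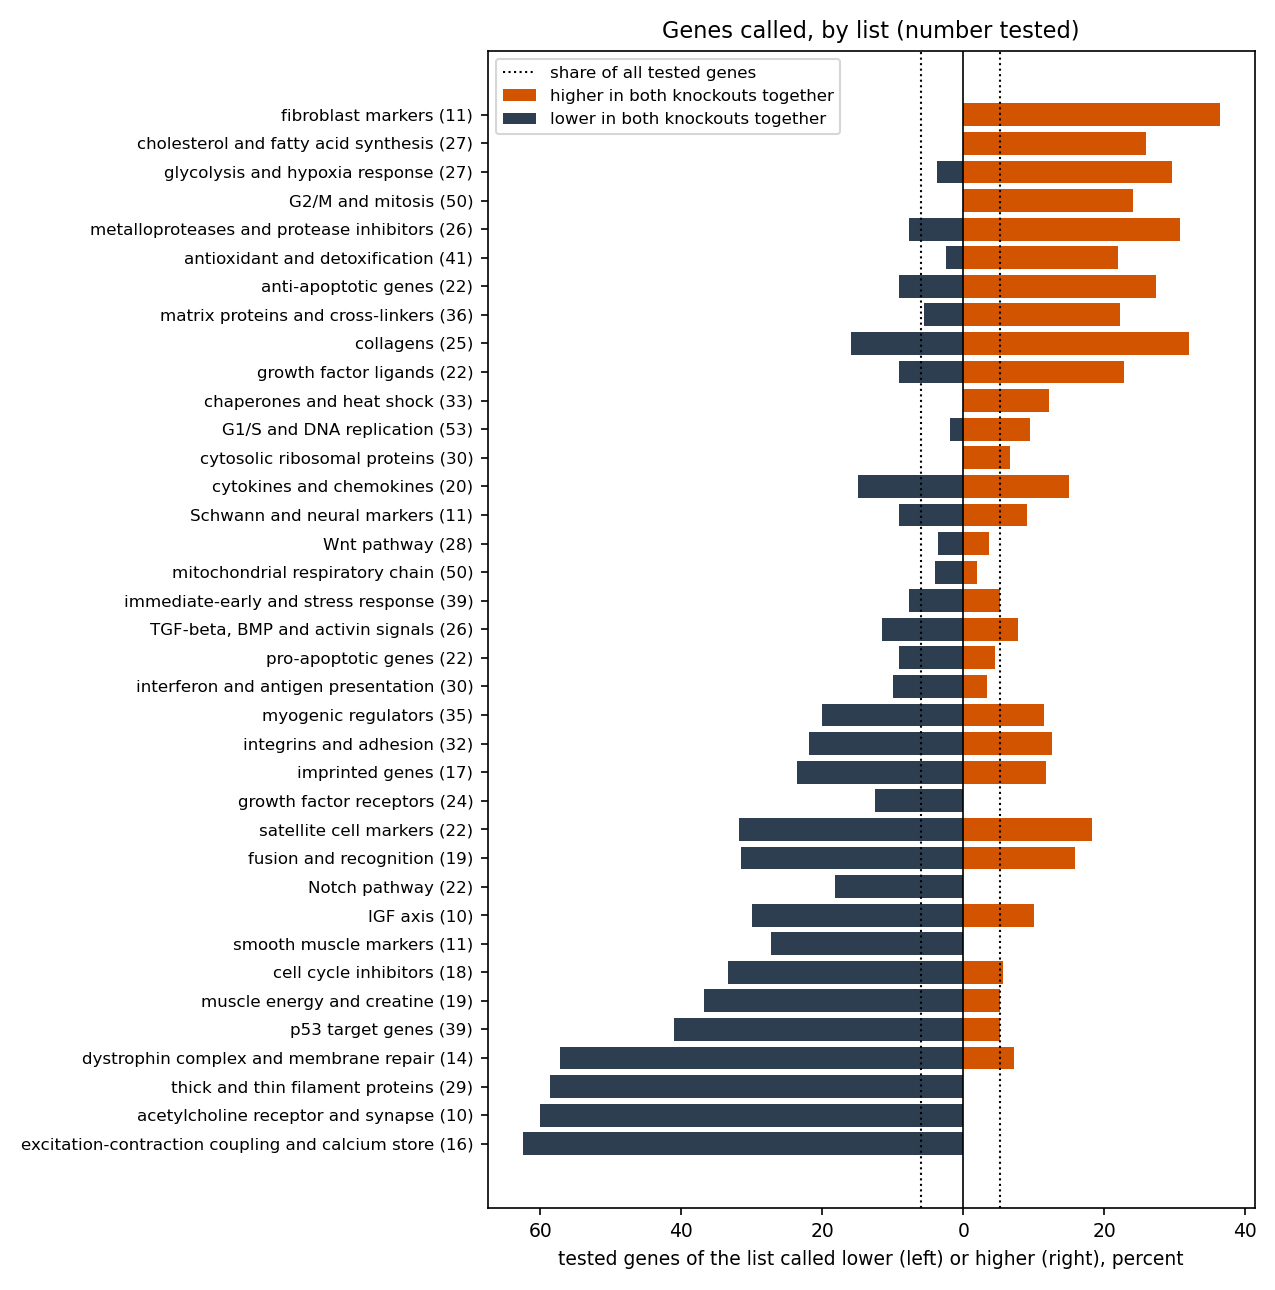
Share of tested genes called higher (right) or lower (left) in both knockouts together, for each list with at least 10 tested genes. Dotted lines mark the shares over all 9013 genes, 5.24% higher and 6.05% lower. Contraction, synapse, membrane and p53-target lists lie far to the left of the line, and fibroblast marker, matrix, mitosis, lipid synthesis, antioxidant and glycolysis lists to the right.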

How the data were processed

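MAS5 signal intensities were used as the authors deposited them, at 1 linear value for each probe set of an array. MAS5 is named in the submitters' processing notes, without its version or settings. The 2% trimmed mean was 1500.8 to 1501 on all 18 arrays, and no rescaling was applied. Precision is limited by how many arrays there were. Signals became log2(signal + offset), the offset being the 20th percentile of a chip type. Testing needed a signal above the array's own 40th percentile on at least 3 of 9 arrays. limma 3.58.1 (R 4.3.3, eBayes with trend) was fitted per chip type on genotype means, after being tested on simulated data. The contrast was the mean of MyoD-/- and p53-/- minus wild type, two-sided, with Benjamini-Hochberg adjustment over both chip types. Errors are limma standard errors. The platform annotation gave a single symbol to 18550 of 24290 non-control probe sets, several to 546 and none to 5194; 18494 matched GRCm38.p6 by gene ID.

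Members, the 42 gene lists and the tests were chosen with earlier results of these data known. Named genes were the 15 higher and 15 lower with the largest smaller shift, the 5 higher and 5 lower with the largest change among those that differed between the knockouts, up to 4 genes called in each list by smallest adjusted p, and a preset group (Myod1, Myf5, Myog, Pax7, Des, Cdh15, Met, Cd34, Trp53, Cdkn1a, Mdm2, Ccng1, Bcl2, Bcl2l1, Igf1 and Gapdh). Trp53, Pax7 and Gapdh lacked a non-control probe set annotated to them alone and are not analysed here. Further genes and second probe sets in the text were picked once their values had been seen. The 25 alternatives covered the offset, the filter, quantile normalization, the variance model, the adjustment, knockouts as 1 group, each chip type alone, blocks and leaving out each sample. A result for 1 named gene is not reported here.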

Additional observations from a re-analysis of the deposited data

Results flagged for a closer look

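Of the 100 genes named above by the stated rule, 54 differed between MyoD-/- and p53-/- in the direct contrast of the 2 knockouts, against 16.1% of all tested genes. The log2 differences of this contrast do not use the wild-type arrays, but its filter and its estimate of spread do. Each value is the log2 difference of MyoD-/- from p53-/-, called by limma with Benjamini-Hochberg adjustment. The named genes were partly chosen for such differences, so their share is a description.

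MyoD-/- was the higher knockout in 29 of them. In matrix genes the difference was 4.70 for Ccn2, 4.48 for Lox, 3.81 for Fbln2, 3.42 for Bgn, 2.37 for Col1a1, 1.90 for Col8a1 and 1.36 for Aebp1. In secreted or surface proteins it was 5.06 for Tfpi2, 2.60 for Bdnf, 2.32 for Cd34, 2.22 for Grem1, 2.19 for Ly6e, 2.09 for Kitl, 2.68 for Tnfrsf11b, 1.79 for Cd14, 1.78 for Pmp22, 1.65 for Igf2 and 1.52 for Adam12. In genes tied to p53 or the cell cycle it was 2.73 for Ak1, 2.35 for Ccng1, 2.01 for Mdm2, 1.86 for Cdkn1a and 0.94 for Gas2. It was 4.56 for Rasgrf1, 2.74 for Twist1, 1.19 for Twist2, 1.57 for Pygm, 0.86 for Bcl2l1 and 0.49 for Tpi1.

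p53-/- was the higher knockout in the other 25. In acetylcholine receptor subunits the difference was -4.29 for Chrna1, -2.72 for Chrnd, -1.68 for Chrng and -1.17 for Chrnb1. In other muscle genes it was -2.51 for Des, -2.18 for Myod1, -1.57 for Cdh15, -1.57 for Myl1, -1.39 for Lama2, -1.31 for Id3, -1.06 for Ryr1, -0.69 for Hes6 and -0.61 for Ncam1. In genes of growth and the cell cycle it was -2.58 for Cdkn2b, -1.83 for Gas6, -1.29 for Gadd45a, -1.29 for Igfbp3, -0.86 for Ccnd3 and -0.71 for Plk4. It was -3.80 for Lrrn1, -3.61 for Egln3, -3.20 for Peg3, -3.05 for Mest, -1.31 for Cxcr4 and -1.06 for Met.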

How the results depend on the processing

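No probe set called between both knockouts and wild type reversed direction under any of the 25 alternatives. The 1462 calls became 510 with the knockouts as 1 group, which counts the difference between them as error, and 134 with scan session as a block, an alternative chosen after seeing the data; they ranged from 796 (without wild type B; 845 without wild type A) to 1604 leaving out 1 sample. Adjusted alone, U74Cv2 gave 254 calls, against 404 of the 1462, and U74Av2 1260, against 1058; the U74Cv2 counts below likewise cover only that chip type. MyoD-/- minus p53-/-, with 2045 calls, gave 246 calls on U74Cv2 alone, 478 with scan session as a block and 1315 (without MyoD-/- B) to 1935 leaving out 1 sample (1349 without p53-/- C and 1356 without p53-/- A). MyoD-/- minus the other 2 genotypes, with 1835, gave 284 on U74Cv2 alone and 1084 (without MyoD-/- B) to 1680 leaving out 1 sample. p53-/- minus the other 2, with 1954, gave 249 on U74Cv2 alone, 17 with scan session as a block and 1033 (without p53-/- C; 1034 without p53-/- A) to 2047 leaving out 1 sample. Of the 96 named genes called, 56 lost their call with scan session as a block, 36 with the knockouts as 1 group and 9 when at least 1 of the 9 samples was left out in turn. Lost with scan session as a block were Acta1, Adam12, Aqp1, Bgn, Bhlhe40, Cav3, Ccnb2, Cd14, Cd34, Cdkn1a, Col18a1, Col1a1, Cox6a2, Dapk2, Ddr1, Ebp, En1, Fbln2, Gas2, Gsr, Gulp1, H2-K2, Id3, Idi1, Igf2, Igfbp3, Igfbp6, Kitl, Lox, Mdm2, Mstn, Myf5, Mymx, Myog, Ncam1, Ndp, Notch3, Pim1, Plagl1, Plk4, Pmp22, Prdx4, Pygm, Rgs5, S100a4, Scd1, Scd2, Sgca, Smyd1, Tinagl1, Tnfaip8, Tnfrsf11b, Tnnt3, Tpi1, Twist1 and Twist2. Lost with the knockouts as 1 group were Adam12, Ak1, Bdnf, Ccn2, Ccnd3, Ccng1, Cd14, Cd34, Cdkn1a, Cdkn2b, Chrna1, Chrnb1, Chrnd, Col1a1, Col8a1, Des, Egln3, Fbln2, H2-K2, Id3, Kitl, Lox, Mdm2, Myod1, Myog, Notch3, Peg3, Plk4, Pmp22, Rasgrf1, S100a4, Tfpi2, Tnfrsf11b, Tpi1, Twist1 and Twist2. With the knockouts as 1 group and with scan session as a block, in that order, genes called lower became 16 and 5 of 17 for the filaments, 8 and 2 of 10 for excitation-contraction coupling, 2 and 4 of 6 for the acetylcholine receptor and synapse, 5 and 1 of 8 for the dystrophin complex, 1 and 1 of 7 for myogenic regulators and 3 and 3 of 16 for p53 targets. Genes called higher became 2 and 2 of 8 for matrix proteins, 0 and 1 of 8 for collagens, 1 and 0 of 12 for mitosis, 2 and 0 of 6 for anti-apoptotic genes, 5 and 0 of 7 for cholesterol and fatty acid synthesis, 4 and 1 of 9 for antioxidant genes and 3 and 0 of 8 for glycolysis. Among named genes, 2 that were not called changed sign: Igf1, at -0.07, was at 0.043 with scan session as a block, and Bcl2l1, at 0.05, ranged from -0.016 (without wild type A) to 0.13 leaving out 1 sample. A replicate block on the letters gave 1238 calls; samples of the same letter did not deviate together (correlations of -0.12 to 0.127, 1 of 18 over 0.1), so the letters were not treated as pairs. Of 1238 genes with tested probe sets on both chip types, 163 were called on U74Av2; 121 of these had the same sign on U74Cv2, 36 were called the same way there and 2 the opposite way.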
